A study of Macaca fascicularis with 28 samples.

Results

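The potassium channel genes of the tongue epithelium of macaques are described here. All genes whose symbol begins with KCN were taken, which gave 76 genes of 14873 named on the array, and each gene was represented by the brightest of its probe sets over all 28 samples. Symbols came first from the study's own list of taste bud genes and otherwise from the array annotation. That list was drawn up on these same samples, and the probe sets of 9 genes (among them KCND3, KCNE3, KCNH2, KCNH7, KCNIP4, KCNQ3, KCNQ5 and KCNT2) were named by it alone, so that their being higher in taste buds is not independent of how they were named.

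Taste buds, the clusters of taste receptor cells, and the surrounding lingual epithelium (LE) without taste buds had been cut from post-mortem tongue sections of cynomolgus macaques of both sexes by laser capture microdissection. A first array set held 6 animals of 2.6 to 4.5 years, 4 female and 2 male, with fungiform (FG) taste buds of the front of the tongue and adjacent LE from all 6, and circumvallate (CV) taste buds of the back of the tongue and adjacent LE from animals 1, 3, 4 and 5. A second array set came from 4 further animals of 3 years, 3 female and 1 male, here animals 7 to 10, whose CV taste buds were cut into a top and a bottom fraction. The labels name no treatment and no genetic change. They give about 5000 cells per sample, pooled over many taste buds, so that a level belongs to a mixture of cell types.

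Potassium channels let potassium leave a cell and so set its resting potential and end its action potentials. They are built from pore-forming subunits, either opened by voltage or calcium, rectifying inwards, or leaking at rest with paired pore domains, and from auxiliary subunits that change the gating or the delivery of the pore. Taste receptor cells are excitable epithelial cells that fire action potentials, and in them potassium channels shape firing, maintain the resting potential and take part in clearing potassium around active cells.

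Intensity is given in the linear units of the deposited arrays, and 25 units, the minimum that the study used, is taken here as the level below which a probe set counts as dim. Of the 76 genes, 7 reached 25 units in all 28 samples (KCND1, KCNJ12, KCNJ13, KCNJ2, KCNK1, KCNMB4 and KCNQ1), and 19 stayed below it in every sample. Among the dim ones were KCNJ1, a renal-type inward rectifier whose highest value was 15.2 units, KCNA5, a delayed rectifier, at 17.4 units, and KCND2, a close relative of KCND3, at 9.98 units. A dim probe set can mean little transcript or a probe set that binds poorly, which cannot be told apart here. The heat map holds 28 genes that differed in a comparison below, are on the study's list or reached 25 units in all samples. Most of them were lower in LE than in taste buds, which that choice favours, and KCNJ13 had the opposite order.

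**Figure D1:**
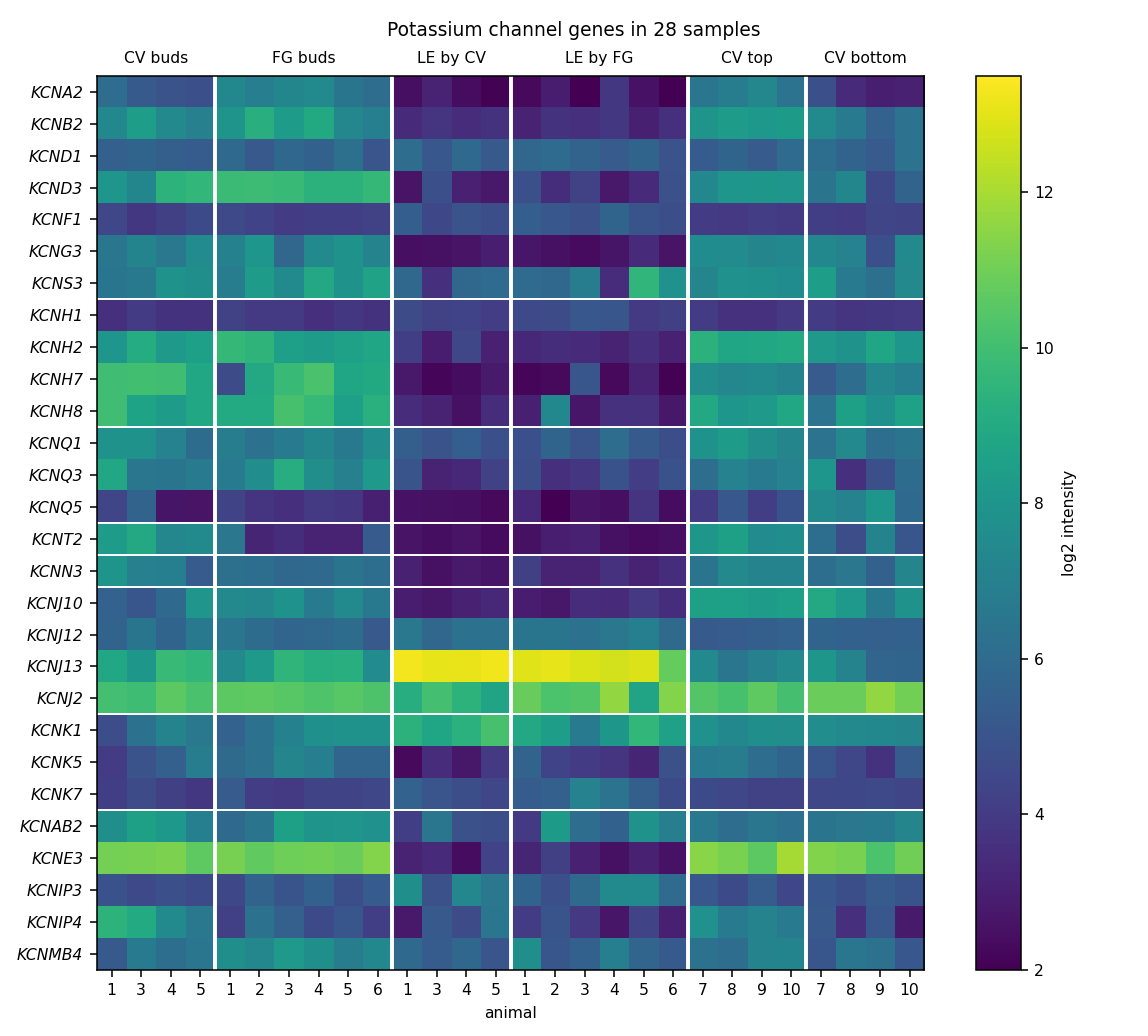
Log2 intensity (colour) of 28 potassium channel genes (horizontal lines part the families) in each of the 28 samples (columns, by group and animal). KCNE3 lay between 1194 and 3951 units in every taste bud sample and at 20.03 units or less in LE, and KCNJ13 between 1738 and 10130 units in LE.

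Most markers followed the labels. Summed over 5 type II taste cell genes (TRPM5, PLCB2, GNAT3, GNG13 and ITPR3, of the bitter, sweet and umami cascade), CV taste buds held 11760 to 15400 units and FG taste buds 10790 to 15010, against 112.5 to 220.1 in all LE. Summed over the 7 keratinocyte markers on the array, LE held 50650 to 63750 units against 1941 to 12080 in taste buds. Exceptions were the 2 type I taste cell markers, which summed to 43.89 to 193.8 units in FG taste buds and 81.36 to 259 in their LE. Of these, ENTPD2 also had a lower mean in CV taste buds than in their LE (33.66 against 43.94 units). The taste bud keratin KRT8 was alike at the CV site (means of 39.88 and 39.49 units). The type III marker NCAM1 had a higher mean in LE (1121 against 691.7 units at the CV site and 871.5 against 689 at the FG site). Fibroblast markers summed to 630.6 to 3874 units in CV taste buds against 864.1 to 2122 in LE, and 738.8 to 3592 against 718.5 to 4257 at the FG site. Melanocyte markers, carried by MLANA alone, summed to 112.3 to 937.4 against 23.06 to 160.2, and 55.07 to 690.8 against 25.15 to 104.4. Immune markers summed to 147.5 to 438.7 against 2107 to 3771, and 138.5 to 684.9 against 421.9 to 1043. The part of these cells in the changes below was not tested. The 3 skeletal muscle markers summed to 4576 units in LE adjacent to FG papillae of animal 3 and to 1308 in its FG taste buds, above the 69.3 to 390.9 of the other FG-site samples. Median intensity was 13.57 to 16.75 units over the 28 arrays, and the small number of arrays per group limits the precision of every value below.

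For each tissue, taste buds were first compared with the adjacent LE of the same animals, to ask which channel genes taste buds carry over the epithelium around them. In the CV comparison 39 of the 76 genes were bright enough to test, and limma with Benjamini-Hochberg adjustment over all probe sets called 18 of them higher and 3 lower in taste buds at an adjusted p of at most 0.05. Of all 26176 probe sets tested, 17.3% were higher and 18.0% lower. In the FG comparison 16 of 39 were higher and 5 lower, against 21.1% and 20.2% of all probe sets. The median log2 change of the 39 was 1.30 in CV and 0.74 in FG, beside -0.08 and 0.05 over all probe sets, and with 1 probe set per named gene the share higher on the whole array was 25.1% in CV and 27.1% in FG. Of the 39, 10 passed the brightness filter through taste buds alone, and so had to be higher there. Among them were KCNA2, KCNB2, KCNE3, KCNG3, KCNH2, KCNJ10, KCNN2, KCNN3 and KCNT2. A further 2, KCNF1 and KCNH1, passed through LE alone. These counts and medians are therefore a description and carry no support of their own. The same holds for the direction, separation and adjusted p against LE of the genes just named. For KCND3, KCNH7, KCNH8 and KCNK5 fewer LE samples reached 25 units than the 4 samples that the filter asked for. These genes also needed taste buds to pass, and the same limit holds for them. Of the 76 genes 19 are on the study's list, which was chosen on these samples for higher taste bud values and is no independent evidence of direction. With names from the array annotation alone, a check chosen after seeing the data, 11 of 33 tested genes (33.3%) were higher in CV and 10 of 33 (30.3%) in FG.

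At both sites 15 genes were higher, and 2, KCNJ13 and KCNK1, were lower at both. The share of all probe sets called at both sites was not counted. These numbers and the family counts below are therefore a description only. The plot of changes against LE gives both sites side by side for each gene. Because these are bulk samples, more cells of a type and more RNA per cell cannot be told apart in any of these values.

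**Figure D2:**
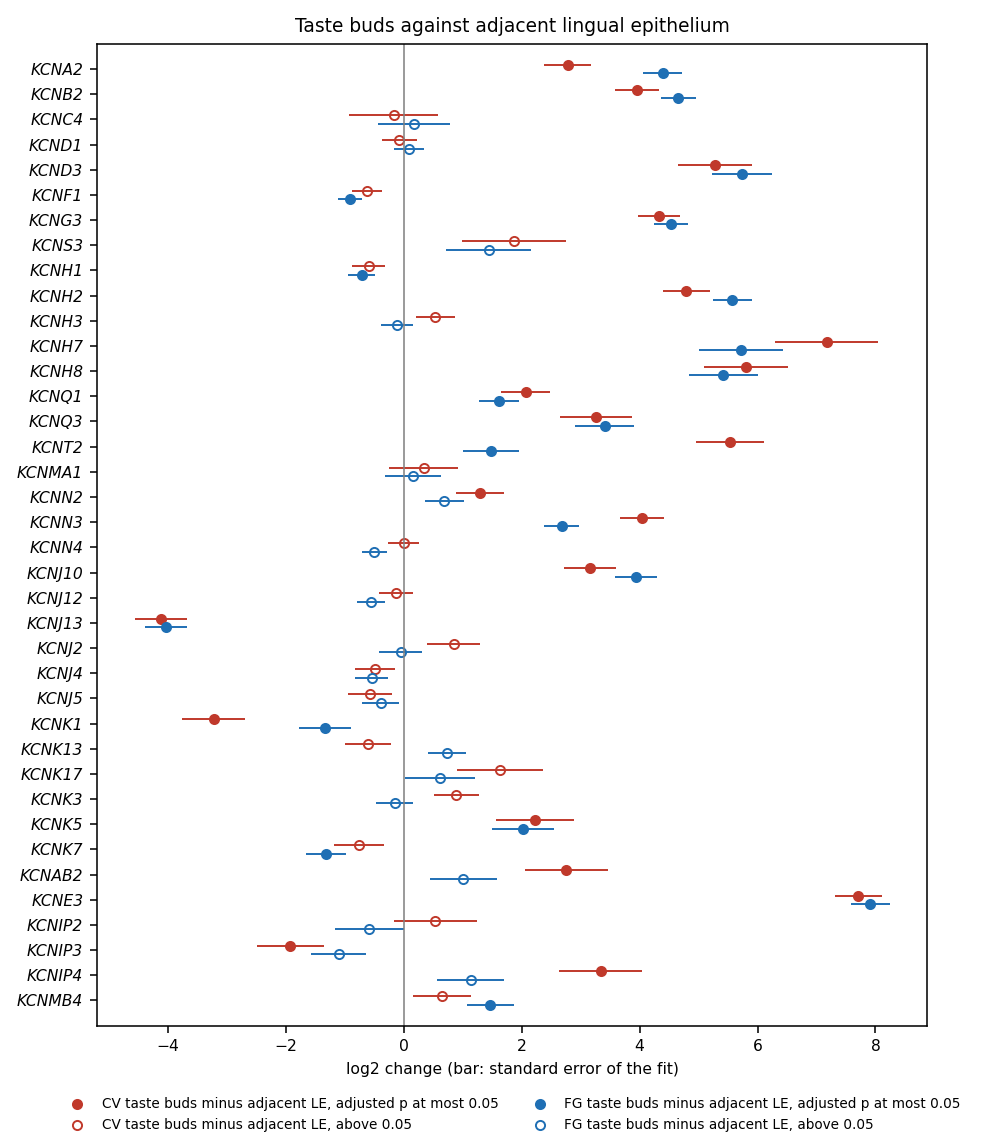
Log2 change (horizontal axis, bars are standard errors of the fit) of 38 tested potassium channel genes in CV (red) and FG (blue) taste buds against adjacent LE, where filled points passed an adjusted p of 0.05. KCNE3 stands farthest to the right at 7.71 and 7.91, and KCNJ13 farthest to the left at -4.12 and -4.03.

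Auxiliary subunits included the gene with the greatest change. KCNE3 encodes a small membrane protein that joins KCNQ and other voltage-gated pores and holds the KCNQ1 channel open. In CV taste buds it measured 2224, 2226, 2377 and 1604 units in animals 1, 3, 4 and 5, and in the adjacent LE 8.73, 10.7, 5.25 and 20.03. In FG taste buds it ran from 1661 through a median of 2045 to 2661 units, and in the adjacent LE from 5.69 through 8.41 to 18.2. No taste bud sample came near any LE sample. The log2 change was 7.71 ± 0.40 (SE, adjusted p = 1.2e-08) in CV and 7.91 ± 0.33 (adjusted p = 6.56e-10) in FG, at least 83.4-fold and 82.6-fold. This KCNE3 probe set passed the brightness filter through taste buds alone and was named by the study's list alone. Its direction, separation and adjusted p therefore carry no support of their own. Between CV and FG taste buds KCNE3 differed by 0.09 on the log2 scale (95% interval -0.74 to 0.92; adjusted p = 0.968). A second, much dimmer probe set of KCNE3, the one named by the array annotation, averaged 22.7 units in CV taste buds and was not called in either comparison.

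Of the other auxiliary genes, KCNAB2, a cytoplasmic beta subunit of the Shaker-type channels, was higher in CV taste buds (log2 change 2.76 ± 0.70, adjusted p = 0.00776) and not in FG (1.01 ± 0.57, adjusted p = 0.174). The difference between those changes was 1.75 ± 0.91 with an adjusted p of 0.385, so a difference between sites was not shown. Other probe sets of KCNAB2 disagreed: one was higher in FG taste buds (1.59 ± 0.36, adjusted p = 0.0034) and a dimmer one was lower there (-1.10 ± 0.23, adjusted p = 0.00208). KCNMB4, the neuronal beta subunit of the large calcium-activated channel, was higher in FG (1.47 ± 0.40, adjusted p = 0.00968), while its CV change of 0.65 ± 0.49 missed the threshold. Both other tested probe sets of KCNMB4, the brighter of them on the study's list, were higher at both sites, by 2.85 and 1.92 in CV and by 3.97 and 2.61 in FG. KCNIP3, a calcium-binding protein that joins the rapidly inactivating KCND channels and also acts in the nucleus, was lower in CV taste buds (-1.92 ± 0.57, adjusted p = 0.0182), with 23.1 to 29.4 units against 29.3 to 213.2 in LE. In FG the KCNIP3 change was -1.10 ± 0.47 (adjusted p = 0.0718), and a second probe set was lower at both sites (-1.64 ± 0.50, adjusted p = 0.0199, and -1.32 ± 0.41, adjusted p = 0.0185). The CV call for KCNIP3 was lost without animal 1, 4 or 5, with an adjusted p of up to 0.102, and that for KCNAB2 without animal 4.

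The ether-a-go-go family had 7 genes, of which 5 were tested and 3 were higher at both sites. KCNH2, the channel of the cardiac rapid delayed rectifier, measured 265.5, 550.1, 287.9 and 355.2 units in CV taste buds of animals 1, 3, 4 and 5 and 17.8, 7.66, 21.9 and 8.44 in their LE. FG taste buds held 329.0 to 813.0 units with a median of 416.1, and their LE 8.24 to 12.2 with a median of 10.3. Every taste bud sample was thus above every LE sample, and KCNH2 was higher by 4.79 ± 0.40 (adjusted p = 1.19e-06) in CV and 5.57 ± 0.33 (adjusted p = 2.36e-08) in FG. KCNH2 passed the brightness filter through taste buds alone, so this direction and separation carry no support of their own. A second KCNH2 probe set, named by the array annotation, gave 4.25 ± 0.29 and 4.78 ± 0.23, but another annotated KCNH2 probe set gave 0.61 ± 0.28 in CV (adjusted p = 0.11, not called, ranges overlapping) and 1.06 ± 0.23 in FG (adjusted p = 0.00269).

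KCNH7, a neuronal relative of KCNH2, measured 1005, 1037, 1009 and 462 units in CV taste buds and 4.46 to 7.02 in their LE, a change of 7.17 ± 0.87 (adjusted p = 2.99e-05). In FG taste buds KCNH7 ran from 25.7 through 502.7 to 1189 units, and in their LE from 4.19 through 4.92 to 34.1. FG taste buds of animal 1 lay below LE of animal 3, which was the only overlap, and the FG change was 5.72 ± 0.71 (adjusted p = 3.32e-05). KCNH7 needed taste buds to pass the brightness filter, so its direction, separation and adjusted p carry no support of their own. The KCNH7 probe sets named by the array annotation were too dim to test, with group means of 23.85 units or less. KCNH8, an Elk-type channel of the same family, was higher by 5.81 ± 0.71 in CV and 5.42 ± 0.58 in FG, with 317.9 units or more in every whole taste bud sample and 12.6 or less in LE except for 166.9 in animal 2 at the FG site. The limit set by the brightness filter holds for KCNH8 as well. KCNH1, the family's founding member, was dim throughout and lower in FG taste buds by a small margin (-0.71 ± 0.23, adjusted p = 0.0219, 14.9 against 25.3 units on average), a call that ended when values under 25 were raised to 25 or arrays were centred on their medians, and KCNH1 was too dim to test without animal 1, 2, 3 or 4.

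Among the 18 voltage-gated alpha subunits 8 were tested, and 4 were higher at both sites. KCND3, a pore of the rapidly inactivating A-type current, measured 265.9, 153.6, 691.8 and 784.3 units in CV taste buds of animals 1, 3, 4 and 5 and 6.06, 28.2, 8.23 and 6.88 in LE. In FG taste buds KCND3 was tighter, at 665.7 to 940.7 units with a median of 852.9, and LE held 6.96 to 28.5. The groups did not overlap, and the log2 changes were 5.28 ± 0.62 (adjusted p = 2.33e-05) and 5.74 ± 0.51 (adjusted p = 1.35e-06). KCND3 reached 25 units in 1 LE sample of the CV site and 2 of the FG site, so it needed taste buds to pass the brightness filter. This separation and its adjusted p carry no support of their own. The KCND3 probe set named by the array annotation was too dim to test. It averaged 9.68 units in CV taste buds and 11.8 in their LE, and 9.48 and 15.6 at the FG site.

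KCNB2, a slowly inactivating delayed rectifier, was higher by 3.96 ± 0.37 and 4.66 ± 0.30, and KCNG3, a silent subunit that modifies KCNB pores, by 4.33 ± 0.35 and 4.53 ± 0.29, in CV and FG. Both passed the brightness filter through taste buds alone, so these changes carry no support of their own. A second KCNG3 probe set was too dim to test. It averaged 12.23 units in CV taste buds and 11.25 in their LE, and 10.97 and 10.78 at the FG site. KCNB2 held 128.2 to 344.5 units in CV and 125.6 to 592.4 in FG taste buds, against 8.02 to 14.5 in LE. A second, dimmer KCNB2 probe set was not called in CV (0.51 ± 0.46, adjusted p = 0.406) and higher in FG (1.46 ± 0.37, adjusted p = 0.00695). Another silent partner of KCNB pores, KCNS3, was not called on its brighter probe set (1.87 ± 0.88, adjusted p = 0.115, in CV and 1.44 ± 0.72, adjusted p = 0.123, in FG), whose LE values ran from 11.04 to 767.6 units. The dimmer KCNS3 probe set, which is on the study's list, was higher by 3.18 ± 0.63 and 3.73 ± 0.52. KCNF1, also a silent subunit, was dim and lower in FG taste buds (-0.91 ± 0.20, adjusted p = 0.00321; CV -0.62 ± 0.25, adjusted p = 0.0687), with FG values of 15.8 to 23.6 units against 27.2 to 52.0 in LE. KCND1, although a relative of KCND3, stayed at 30.3 to 83.0 units in all 28 samples and was called in none of the 6 comparisons, with a CV change of -0.07 (95% interval -0.72 to 0.58) and an FG change of 0.09 (-0.45 to 0.62).

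KCNQ1 and KCNQ3 were higher at both sites. KCNQ1, a partner of KCNE3 in epithelia, was present in LE as well: it measured 241.0, 239.5, 135.5 and 67.9 units in CV taste buds of animals 1, 3, 4 and 5 and 45.1, 30.5, 43.9 and 28.2 in LE. FG taste buds held 81.5 to 197.3 units of KCNQ1 with a median of 108.2, and their LE 27.4 to 69.3 with a median of 34.8. The groups were apart at both sites, with changes of 2.07 ± 0.42 (adjusted p = 0.00177) and 1.62 ± 0.34 (adjusted p = 0.0022), 4.2-fold and 3.08-fold. KCNQ3, a subunit of the neuronal M-current, was higher by 3.26 ± 0.61 and 3.41 ± 0.50, with CV taste buds of animal 1 at 466.8 units and the other 3 at 89.6 to 111.2. The KCNQ3 probe set named by the array annotation was dimmer, with a mean log2 intensity of 3.30 over all samples against 5.94.

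Of the calcium-activated genes, KCNN3, a small-conductance channel opened by calcium through calmodulin, measured 244.8, 129.4, 124.2 and 39.6 units in CV taste buds and 59.6 to 84.7 in FG, against 5.78 to 18.2 in LE. It was higher by 4.04 ± 0.37 (adjusted p = 2.6e-06) in CV and 2.68 ± 0.30 (adjusted p = 1.32e-05) in FG. As KCNN3 passed the brightness filter through taste buds alone, these values carry no support of their own. KCNN2, its close relative, is named because it completes the 18 called genes, a choice made after its value was seen: it was higher in CV by 1.30 ± 0.41 (adjusted p = 0.024) at only 19.6 to 51.2 units, and the call ended when values under 25 were raised to 25. Without animal 1, 4 or 5 KCNN2 was too dim to test. KCNMA1, the pore of the large-conductance channel that KCNMB4 serves, was not called in either comparison, at 8.65 to 70.3 units in taste buds.

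Inward rectifiers and leak channels went both ways. KCNJ10, the glial inward rectifier that takes up potassium, measured 49.6, 33.2, 60.4 and 257.9 units in CV taste buds of animals 1, 3, 4 and 5 and 101.3 to 234.6 (median 165.2) in FG, and LE of both sites stayed at 6.63 to 15.1. It was higher by 3.16 ± 0.44 (adjusted p = 9.55e-05) in CV and 3.94 ± 0.36 (adjusted p = 1.68e-06) in FG. As KCNJ10 passed the brightness filter through taste buds alone, these values carry no support of their own. KCNK5, an acid-sensitive leak channel, was higher by 2.23 ± 0.66 and 2.02 ± 0.53, yet its second probe set went the other way, by -2.57 ± 0.81 (adjusted p = 0.0241) in CV and -1.52 ± 0.66 (adjusted p = 0.0798) in FG, so that no direction is given for the gene. Without animal 4 the KCNK5 calls missed the threshold at both sites, and in CV also when values under 25 were raised to 25 or LE was pooled.

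KCNJ13, an inward rectifier of low conductance known from retinal pigment epithelium and other transporting epithelia, was lower in taste buds at both sites. LE adjacent to CV papillae measured 10130, 8748, 8802 and 9825 units in animals 1, 3, 4 and 5, and CV taste buds 480.1, 271.1, 852.5 and 758.7. LE adjacent to FG papillae ran from 1738 through 7420 to 8738 units, and FG taste buds from 170.4 through 431.1 to 728.2. Every LE sample was above every taste bud sample, LE of animal 6 by the least, and KCNJ13 was lower in taste buds by 4.12 ± 0.44 on the log2 scale in CV (log2 change -4.12, adjusted p = 9.8e-06, 17.4-fold) and by 4.03 ± 0.36 in FG (log2 change -4.03, adjusted p = 1.42e-06, 16.3-fold). The 2 other probe sets of KCNJ13 stayed under 25 units in all samples, and in RefSeq's cynomolgus annotation the gene's span overlaps that of GIGYF2, so which transcript the bright probe set reports was not settled here. Keratinocyte marker sums moved in the same direction, 53190 to 63750 units in LE adjacent to CV papillae against 2015 to 4243 in CV taste buds, and their part in this result was not tested.

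KCNK1, a weakly conducting leak channel, was also higher in LE. It measured 668.3, 444.4, 648.2 and 1132 units in LE adjacent to CV papillae and 26.7, 78.1, 143.3 and 97.8 in CV taste buds (-3.22 ± 0.53, adjusted p = 0.0004, 9.29-fold), with no overlap. In FG the LE values of 111.9 to 788.1 units overlapped the taste bud values of 49.3 to 237.8, the LE sample of animal 3 being below the taste buds of that animal, and the change of -1.33 ± 0.44 (adjusted p = 0.0255) was lost without animal 1, 2 or 5 or with arrays centred on their medians. A second KCNK1 probe set was lower in CV (-3.47 ± 0.81, adjusted p = 0.00438) and not called in FG (-0.45 ± 0.66, adjusted p = 0.609). The difference between the CV and FG changes of KCNK1, on its brightest probe set, was -1.89 ± 0.69 (adjusted p = 0.208). KCNK7, a dim relative, was lower in FG taste buds (-1.32 ± 0.34, adjusted p = 0.00795) and not called in CV (-0.76 ± 0.42, adjusted p = 0.175), with an interaction of 0.56 ± 0.55 that missed the threshold (adjusted p = 0.68). Its FG values were 15.5 to 39.2 units against 24.2 to 135.7, with its highest LE value in animal 3, the sample with the muscle markers.

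KCNJ2, the classical inward rectifier of heart, muscle and sour-sensing taste cells, gave different results on its probe sets. The brightest, named by the array annotation, held 987.4 to 1596 units in all 10 whole taste bud samples and 420.6 to 3157 in LE, and was called in neither comparison (0.85 ± 0.45, adjusted p = 0.153, and -0.05 ± 0.36, adjusted p = 0.931). The second KCNJ2 probe set, named by the study's list, measured 1080, 1330, 869 and 1397 units in CV taste buds and 21.8, 9.02, 8.86 and 40.03 in LE. In FG taste buds it ran from 665.8 through 1682 to 2373 units and in LE from 9.36 through 13.98 to 793.6, where 793.6 belonged to animal 6 and all other LE samples were at 40.03 units or less. On that probe set KCNJ2 was higher by 6.14 ± 0.83 (adjusted p = 7.69e-05) in CV and 5.87 ± 0.68 (adjusted p = 1.64e-05) in FG, and the files do not say which of the pair follows the gene. KCNJ12, a muscle and heart relative, stayed at 37.5 to 125.1 units in all samples with no call.

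**Figure D3:**
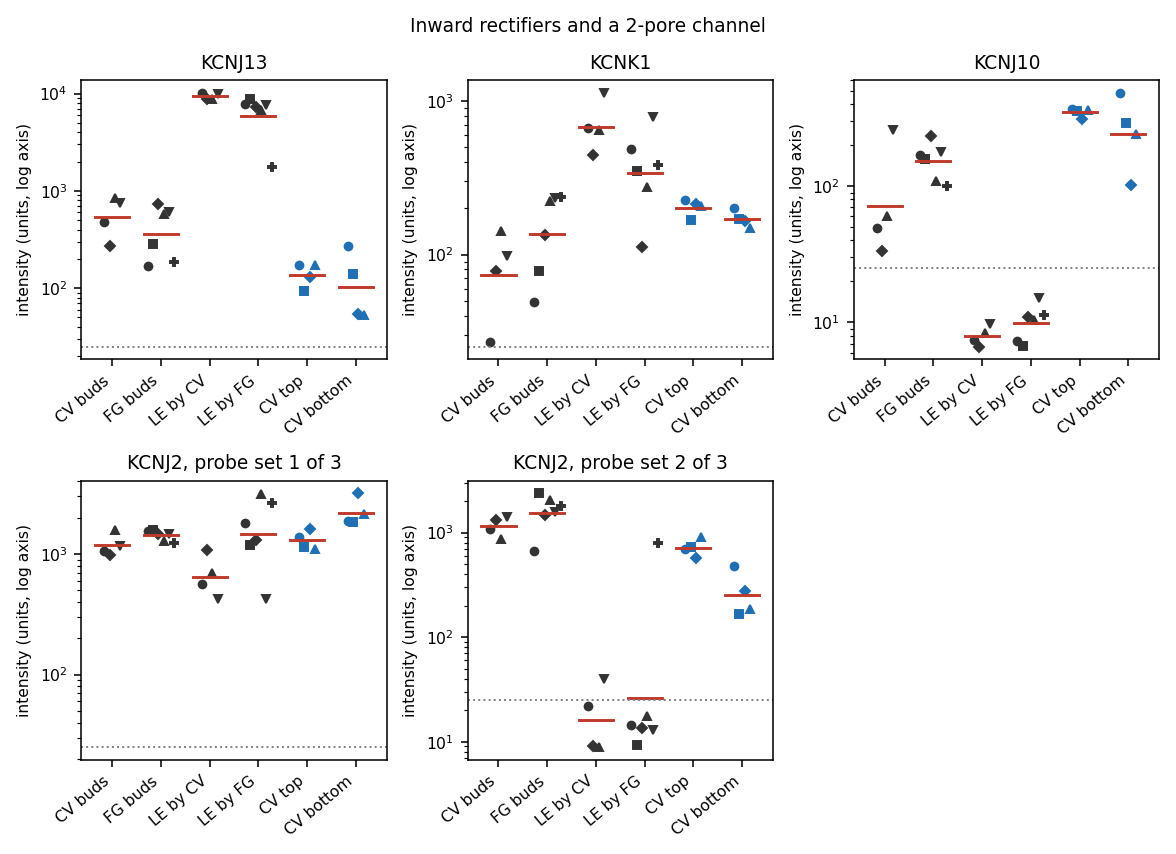
Intensity (units, log axis) of KCNJ13, KCNK1, KCNJ10 and 2 probe sets of KCNJ2 in the 6 groups, with 1 symbol per animal (shape; dark grey for the first array set, blue for the second), red lines at geometric means and a dotted line at 25 units. KCNJ13 and KCNK1 were higher in LE, KCNJ10 was at 15.1 units or less there, and the KCNJ2 probe sets differ in LE.

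Next, CV and FG taste buds were compared, in which 2 genes were higher and 1 lower in CV of the 39 tested, against 0.378% and 0.493% of all probe sets. KCNT2, a sodium-activated channel of large conductance, was the clearest. It measured 313.8, 492.9, 160.1 and 181.8 units in CV taste buds of animals 1, 3, 4 and 5. In FG taste buds KCNT2 was at 93.1 units in animal 1 and 39.0 in animal 6 and between 8.56 and 11.3 in the other 4, and LE of both sites held 4.98 to 8.21. All CV samples were above all FG samples, and the difference was 3.94 ± 0.55 on the log2 scale (adjusted p = 0.00307, at least 7.73-fold). KCNT2 reached 25 units in 4 CV and 2 FG taste bud samples and in 0 of LE, so it needed CV taste buds to pass the brightness filter. Direction, separation and adjusted p of KCNT2 carry no support of their own here, against LE or in the interaction below.

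Against the adjacent LE, KCNT2 was higher by 5.53 ± 0.58 (adjusted p = 8.01e-06) in CV and by 1.48 ± 0.47 (adjusted p = 0.0223) in FG, where the call was lost without animal 1, 5 or 6 or when values under 25 were raised to 25. The CV change exceeded the FG change by 4.05 ± 0.75 (interaction, adjusted p = 0.024), and of the 39 genes KCNT2 alone was so called, beside 0.871% of all probe sets in either direction. Without animal 5 the CV against FG difference missed the threshold (adjusted p = 0.0726), and the interaction missed it without animal 3, 4 or 5.

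KCNIP4, a calcium-binding subunit that modulates the inactivation of KCND channels, measured 702.5, 526.9, 175.9 and 97.1 units in CV taste buds of animals 1, 3, 4 and 5. FG taste buds held 17.8 to 77.9 units with a median of 29.1, the LE of the CV site 6.85, 37.5, 25.5 and 92.5, and the LE of the FG site 6.45 to 31.5. The CV samples were above all FG samples (3.27 ± 0.67, adjusted p = 0.034), and KCNIP4 was higher than adjacent LE in CV (3.34 ± 0.70, adjusted p = 0.00214) but not in FG (1.14 ± 0.57, adjusted p = 0.122), with an interaction of 2.20 ± 0.90 that missed the threshold (adjusted p = 0.264). The site difference was lost without any 1 of animals 1, 2, 3, 4 and 6, with an adjusted p of up to 0.184. The array annotation gives this probe set another name, and in RefSeq the gene overlaps PACRGL. The KCNIP4 probe set named by the annotation was dimmer, with a mean log2 intensity of 2.82 over all samples against 5.35.

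KCNA2, a Shaker-type channel that keeps axons from repetitive firing, went the other way. CV taste buds held 70.0, 38.1, 31.0 and 28.3 units in animals 1, 3, 4 and 5, and FG taste buds 69.5 to 182.1 with a median of 137.7. Only CV taste buds of animal 1 reached the FG range, at its lower end, and the difference was -1.81 ± 0.39 (adjusted p = 0.0439, 3.15-fold lower in CV), which left the threshold with any of the 6 animals removed (adjusted p up to 0.21). Against LE, where all KCNA2 values were 14.4 units or less, the gene was higher by 2.78 ± 0.40 in CV and 4.39 ± 0.33 in FG. The CV call was lost when values under 25 were raised to 25 (adjusted p = 0.0913). KCNA2 passed the brightness filter through taste buds alone, so its changes against LE carry no support of their own. A second KCNA2 probe set was too dim to test, with group means of 9.55 units or less.

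**Figure D4:**
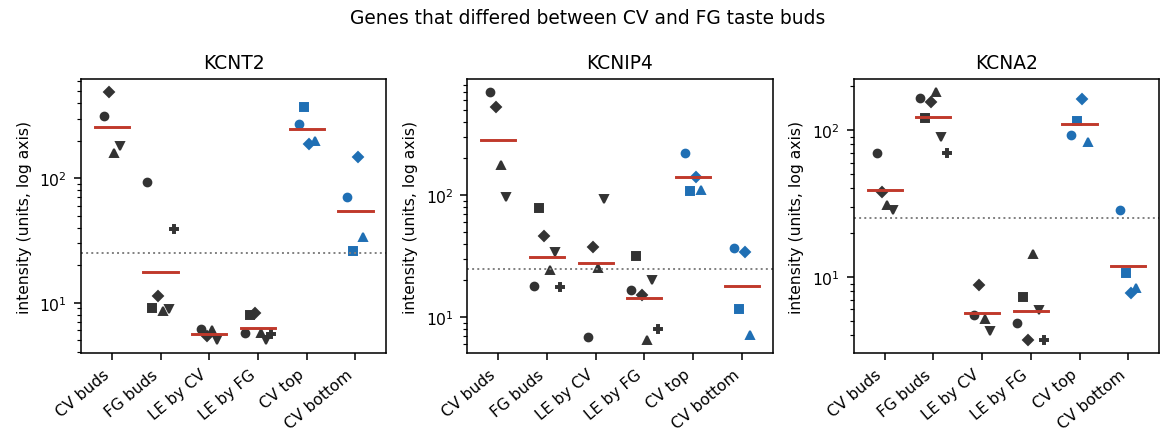
Intensity (units, log axis) of KCNT2, KCNIP4 and KCNA2 in the 6 groups, with 1 symbol per animal (shape; dark grey for the first array set, blue for the second), red lines at geometric means and a dotted line at 25 units. KCNT2 and KCNIP4 were higher in CV than in FG taste buds and KCNA2 lower, and all 3 had higher means in the top than in the bottom fraction.

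For the other members the CV against FG interval often left room for sizeable differences. KCNMB4 was lower in CV by 1.63 on the log2 scale (log2 difference -1.63 ± 0.47, adjusted p = 0.143) with no overlap, and KCNJ10 by 1.21 (log2 difference -1.21 ± 0.42, adjusted p = 0.242), neither past the threshold. Between LE adjacent to CV and LE adjacent to FG papillae, limma called 0 of the 39 genes, beside 0.970% of all probe sets higher and 0.294% lower. Unadjusted, 3 of the 39 (KCNJ2, KCNK7 and KCNN4, an intermediate-conductance calcium-activated channel) reached a p of 0.05, beside 4474 of all 26176 probe sets. The methods' t-test after Benjamini-Hochberg adjustment called 0 of these genes and 0 of all probe sets. KCNC4 and KCNIP2, channel genes also used in muscle and heart, had their highest LE values, 224.0 and 240.0 units, in LE adjacent to FG papillae of animal 3, the sample with the highest skeletal muscle sum, and their part in it was not tested.

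The fractions of CV taste buds were compared next, to see whether channel genes lie towards the taste pore or the base. Of the 76 genes 34 were tested, 2 were higher in the top fraction and 0 lower, beside 1.68% and 1.46% of all 21167 probe sets. The median change was 0.58 for the 34 genes and 0.13 over all probe sets. Unadjusted, 12 genes reached a p of 0.05, 9 higher in the top and 3 in the bottom, beside 4375 of all 21167 probe sets. Fibroblast markers summed to 4555 to 6116 units in the bottom and 626.8 to 1804 in the top fraction, where all of the 6 markers but COL3A1 averaged over 25 units in the bottom, and type II markers to 8313 to 11360 in the bottom and 15990 to 19190 in the top. Summed markers of Schwann cells and nerve (74.79 to 130.7 against 26.24 to 51.45 units) and of smooth muscle and pericytes (127.1 to 278.4 against 50.37 to 99.43) were also higher in the bottom without overlap. The first sum was carried by S100B alone (means of 91.47 units in the bottom and 26.36 in the top). The second was carried by TAGLN alone (160.5 and 53.92). SOX10, MYH11 and CNN1 averaged under 25 units in both fractions. The part of this mixture in the results below was not tested.

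KCNA2 measured 92.7, 114.9, 161.6 and 83.4 units in the top fraction of animals 7 to 10 and 28.4, 10.6, 7.74 and 8.43 in the bottom. The fractions were apart in every animal, and the change was 3.21 ± 0.45 (adjusted p = 0.0298, at least 4.24-fold). KCNIP4 measured 223.1, 108.7, 141.0 and 110.5 units in the top and 37.1, 11.8, 34.3 and 7.18 in the bottom, again without overlap (2.94 ± 0.37, adjusted p = 0.0248, at least 4.67-fold). All 4 top samples of both genes reached 25 units, but only 1 bottom sample of KCNA2 and 2 of KCNIP4. Both genes thus needed the top fraction to pass the brightness filter. Their direction, separation and adjusted p between the fractions carry no support of their own. The KCNA2 call was lost without animal 8, 9 or 10, with an adjusted p of up to 0.145, and without animal 7 the gene was too dim to test. The KCNIP4 call was lost without any 1 of the 4 animals, with an adjusted p of up to 0.135. With 1 animal left out, 0 or 1 probe sets of the whole array were called between the fractions. Without the filter on dim probe sets neither was called.

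Other genes had higher values in the top of all 4 animals but missed the threshold. KCNT2 measured 271.0, 373.1, 188.2 and 196.8 units in the top and 70.8, 26.0, 146.9 and 33.6 in the bottom (2.17 ± 0.55, adjusted p = 0.0913). KCNB2 measured 250.6, 320.9, 279.2 and 306.6 units in the top and 175.0, 107.1, 49.4 and 83.8 in the bottom (1.62 ± 0.37, adjusted p = 0.0709). These pairs did not overlap either, and the same held for KCND3 (1.91 ± 0.52, adjusted p = 0.107) and KCNK5 (1.70 ± 0.41, adjusted p = 0.0807). Fewer than 4 bottom samples of KCND3 and of KCNK5 reached 25 units, so both needed the top fraction to pass the brightness filter. KCNQ1 was higher in the top of each animal with overlapping ranges (1.21 ± 0.27, adjusted p = 0.0686), while its partner KCNE3 differed by 0.36 (95% interval -0.30 to 1.02).

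KCNQ5, an M-type subunit, had the opposite order. It measured 180.8, 135.8, 266.8 and 60.1 units in the bottom fraction of animals 7 to 10 and 16.3, 35.2, 17.7 and 29.6 in the top. All bottom samples were above all top samples, and the change of -2.59 ± 0.52 came close to the threshold (adjusted p = 0.0537). KCNQ5 reached 25 units in 4 bottom and 2 top samples, so it needed the bottom fraction to pass the brightness filter. Its separation and adjusted p carry no support of their own. In the first array set KCNQ5 held 6.02 to 50.4 units in CV taste buds and 7.94 to 20.7 in FG, and was too dim to test. Fibroblast sums in CV taste buds were 630.6 to 3874 units, lower than the 4555 to 6116 of the bottom fraction. These sets differ in animals and arrays, and the part of fibroblasts in the KCNQ5 levels was not tested. KCNIP2 (-1.61 ± 0.45, adjusted p = 0.116) and the brightest KCNJ2 probe set (-0.76 ± 0.25, adjusted p = 0.161) were also higher in the bottom of all 4 animals without overlap. The second KCNJ2 probe set had higher values in the top, 572.3 to 912.3 against 164.7 to 481.3 units (1.51 ± 0.37, adjusted p = 0.0872).

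**Figure D5:**
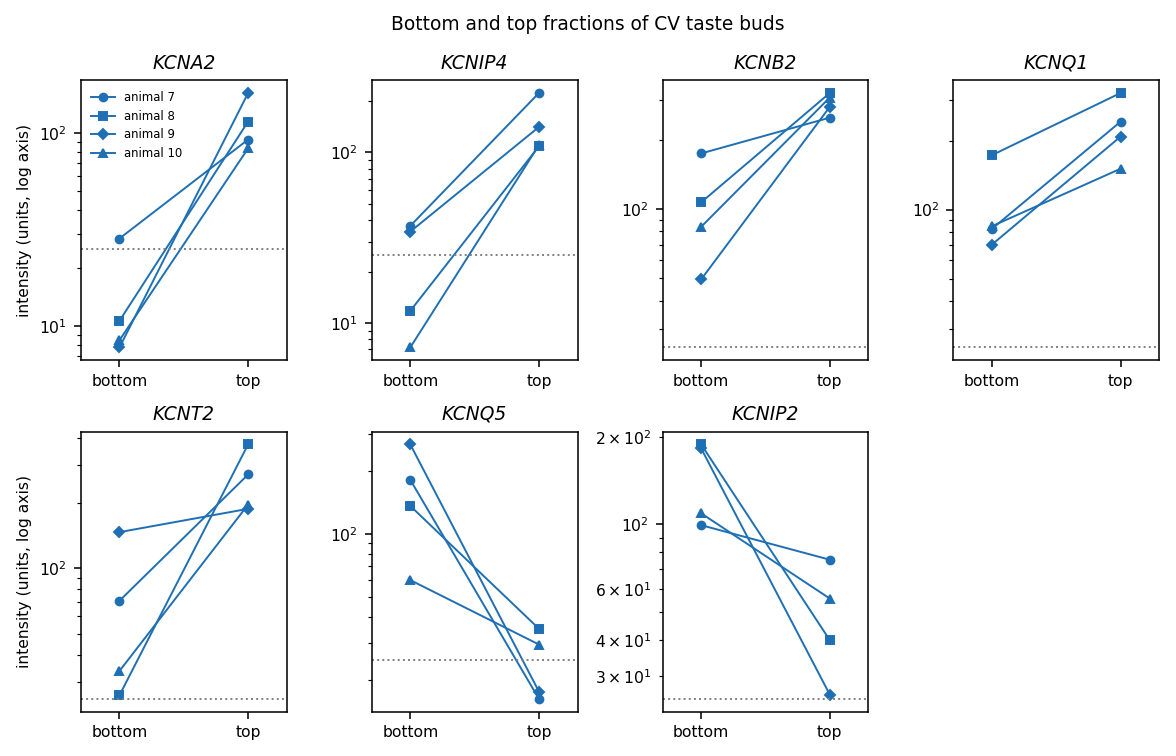
Intensity (units, log axis) of 7 potassium channel genes in the bottom and top fraction of CV taste buds, with 1 line per animal (7 to 10) and a dotted line at 25 units. KCNA2 and KCNIP4 passed the test, KCNQ5 and KCNIP2 were lower in the top of all 4 animals, and the other 3 genes higher in all 4.

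Without the animal as a block the fraction comparison called 4 genes higher (among them KCNB2, in addition to KCNA2 and KCNIP4) and 2 lower (KCNIP2 and KCNQ5). Of all 21167 probe sets that fit called 581 higher and 452 lower. Whole CV taste buds and fractions came from other animals on other arrays, so differences between those sets, such as KCNH7 at 878.2 ± 278 units (SD, n = 4) in whole CV taste buds and 170.1 ± 25.5 (SD, n = 4) in the top fraction, cannot be told apart from array set and animal.

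Genes whose products work with potassium channels were looked at beside them, from a list of 40 partners, pumps and cotransporters of which 25 were named on the array and 16 tested. Of these 16, 7 were higher and 1 lower in CV taste buds, and 8 higher and 1 lower in FG, that is 43.8% and 50% higher beside 25.1% and 27.1% over all genes with 1 probe set each. DPP6, the membrane partner that speeds KCND channels, was higher by 4.82 ± 0.78 (adjusted p = 0.000323) in CV and 4.98 ± 0.64 (adjusted p = 4.1e-05) in FG, as was KCND3 itself. FXYD6, a regulator of the sodium-potassium pump, was higher by 6.25 ± 0.43 and 6.22 ± 0.35, and it was the partner gene called between the fractions (1.62 ± 0.29 in the top, adjusted p = 0.0435). The chloride cotransporters SLC12A2, which brings potassium in, and SLC12A7, which lets it out, were higher by 2.18 ± 0.67 and 2.49 ± 0.48 in CV and by 3.17 ± 0.54 and 2.94 ± 0.39 in FG. FXYD2, the renal pump regulator, was lower by 1.58 on the log2 scale in CV (log2 change -1.58 ± 0.36) and 1.43 in FG (log2 change -1.43 ± 0.29).

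The remaining channel genes gave no call. In the first array set 37 of the 76 genes were not bright enough to test, and 35 of these were too dim in the fractions as well. Counted without the brightness filter, over all 76 genes, 18 were higher and 3 lower in CV taste buds and 16 higher and 15 lower in FG, beside 8.35% higher and 9.05% lower of all probe sets in CV and 10.4% and 15.2% in FG, and the median change of the 76 was -0.01 and -0.19. All genes added as lower in FG were among those too dim to test.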

How the data were processed

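Amplified cDNA from laser-captured tissue was hybridised to Affymetrix arrays of the rhesus macaque genome, 1 per sample, so that cynomolgus transcripts met rhesus probes. The deposited intensities are linear values for 52024 probe sets, processed by the authors with GC-RMA, which corrects for background by probe base composition and puts arrays on a common distribution. Its version is not given in the sources used here. Probe sets whose annotation lists several genes (361) were not named.

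Values were log2 transformed and fitted with limma 3.58.1 in R 4.3.3, keeping those that reached 25 units in 4 or more samples of the fit (26176 for the first array set, 21167 for the fractions). The 20 samples of the first set entered 1 model with 4 groups and the animal as a fixed block (11 residual degrees of freedom), the 8 fractions another (3 residual degrees of freedom). Adjusted p-values are Benjamini-Hochberg over all tested probe sets, called at 0.05, and intervals are 95%. Animals come from the labels: deviations from group means correlated by 0.12 between the fractions of the same animal and -0.04 between those of different animals, and by 0.05 to 0.09 in the first set against -0.02 to -0.01. Linear folds compare geometric means with values under 25 raised to 25, written "at least" where only the lower group was raised. The code was tested on simulated data.

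Named were genes called in a comparison (up to 15 per direction, by size), those on the study's list and those at 25 units or more in all samples. The members, families and partner list were chosen with earlier results of these data known. RefSeq's cynomolgus annotation served for overlaps of genes only. Alternatives tried were no block, a random block, other filters, a floor of 25, median centring, pooled LE, an intensity trend, the methods' t-test, each animal left out, and the other probe sets. Some genes that enter the counts are not reported here by name.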

Additional observations from a re-analysis of the deposited data

Results flagged for a closer look

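In 10 of 135 groups of 4 or 6 samples tested, 1 sample lay far from the others of its group, where chance alone gives about 1 in 20. In CV taste buds these were KCNE3 in animal 5 (1604 units, the others 2224 to 2377), KCNH7 in animal 5 (462 units, the others 1005 to 1037) and KCNQ3 in animal 1 (466.8 units, the others 89.6 to 111.2). In FG taste buds it was KCNH7 in animal 1 (25.69 units, the others 437.7 to 1189). In LE adjacent to FG papillae KCNH7 was high in animal 3 (34.14 units, the others 4.19 to 8.83) and KCNH8 in animal 2 (166.9 units, the others 6.51 to 12.6), and KCNJ13 was low in animal 6 (1738 units, the others 6733 to 8738). KCNS3 was low in LE adjacent to CV papillae of animal 3 (11.82 units, the others 56.9 to 64.0). In the fractions KCND3 was low in the top of animal 7 (165.4 units, the others 258.1 to 272.5) and KCNG3 in the bottom of animal 9 (28.26 units, the others 136.7 to 177.8).

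KCNT2 differed between the sites in its change against adjacent LE, by 4.05 on the log2 scale more in CV than in FG (interaction, limma adjusted p = 0.024). As given above, KCNT2 needed CV taste buds to pass the brightness filter, so this result carries no support of its own.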

How the results depend on the processing

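Of the log2 changes of called genes under the alternatives, 641 kept direction and call, 70 kept the direction but missed the threshold, and 3 reversed, all on other probe sets (KCNAB2 in CV -0.74, KCNK5 in CV -2.57 and in FG -1.52). Of the counts of called genes, 142 stayed within 1.5 times the reported count and 46 did not. The 142 include counts of 0 that stayed 0, as between LE of the CV and FG sites. With names from the array annotation alone, chosen after seeing the data, the genes higher were 11 in CV, 10 in FG, 0 in CV against FG, 1 in the top fraction and 0 in the interaction. The methods' t-test after Benjamini-Hochberg adjustment gave 11 higher and 1 lower in CV, beside 1418 and 1691 of all 26176 probe sets. It gave 0 for CV against FG in either direction and for the top, where it also called 0 of all probe sets. At the methods' threshold it gave 1 lower in FG, 0 lower in CV against FG and 1 lower in the top. Of all probe sets it gave 1018 of 26176, 153 of 26176 and 152 of 21167. Genes lower in CV were 6 with LE pooled, beside 5043 of all 26176 probe sets. Those lower in FG were 15 without the filter (7889 of all 52024), 2 with a filter of 50 (3691 of all 20094) and 3 with arrays centred (4192 of all 26176). Without the filter 0 were lower in CV against FG and 0 higher in the top, beside 112 and 31 of all 52024 probe sets. Without the animal as a replicate block the fractions gave 4 higher and 2 lower, beside 581 and 452 of all probe sets. With a random block they gave 6 and 2, beside 684 and 502. The block moved no other count of calls by more than 1.5 times. Genes lower in the top were 1 with a filter of 50 (301 of all 16782 probe sets), 1 with values raised to 25 (263 of all 21167) and 2 with an intensity trend (446 of all 21167). With values raised to 25 the interaction had 1 lower, beside 246 of all 26176. Leaving out 1 animal gave from 1 to 1 higher and 0 to 0 lower for CV against FG, 0 to 0 higher for the top, and 0 to 1 for the interaction. Of all probe sets it gave 20 to 96 higher and 25 to 131 lower for CV against FG. For the top it gave 0 higher, and for the interaction 3 to 51 higher. The causes of these shifts were not tested. Values near 25 units, few animals and probe sets that disagree limit the small changes.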
